A study of Mus musculus with 4 samples.

Results

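The genes described here are 38 genes of macroautophagy, taken by name from the deposited expression table of 32230 gene symbols: the core machinery that builds an autophagosome and the receptors that bring cargo to it. All 38 were found in the table, all were above 0 in every library, and all passed the filter on low values. They were read in mouse embryonic fibroblasts of the 4F2A line, in which doxycycline switches on Oct4, Sox2, Klf4 and Myc, the 4 factors that give the line its name and start reprogramming toward pluripotency. The treated cells received CX-5461, which blocks RNA polymerase I and with it the making of ribosomal RNA. The other cells received DMSO, the vehicle. Each agent was present for 1 h on day 0, while both groups had doxycycline at 2 µg/mL, for 48 h per the series design, and RNA was harvested on day 2. The fibroblasts came from male mid-gestation embryos homozygous for 4F2A. Each group had 2 libraries, numbered 2 and 3, called parallel replicates in the labels, which do not say whether they were separate cultures, so the p-values reflect the spread among these libraries alone, which may be technical.

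In macroautophagy a membrane sac closes around cytoplasm and delivers it to the lysosome. The ULK kinase complex starts the process, a class III PI3-kinase complex marks the membrane with the lipid PI3P, ATG2 and ATG9 supply lipid, and a ubiquitin-like conjugation system attaches proteins of the LC3 and GABARAP families to the membrane, where cargo receptors bind them. The activity of the pathway is set mostly at the protein level, by phosphorylation and lipid conjugation, and none of that is measured by messenger RNA.

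The libraries held about 35233900 and 34960100 reads with CX-5461 and 35187300 and 37280400 reads with DMSO, as recovered from the TPM values. TPM is the number of reads of a gene divided by its length and scaled to a fixed sum in each library. The autophagy genes had from 124 to 17723 recovered reads per library. DMSO replicate 3 stood apart: mitochondrially encoded genes made up 9.20% and 9.24% of TPM with CX-5461 and 9.96% and 15.3% with DMSO, the highest share being that of replicate 3. The proliferation gene Mki67 had 1.59 and 1.75 TPM with CX-5461 against 84.6 and 98.0 TPM with DMSO, and the p53 target Cdkn1a had 1637 and 1765 TPM against 718 and 683 TPM. Fibroblast markers were abundant in every library, and Col1a1, a collagen gene, had 3202 and 3150 TPM with CX-5461 and 4321 and 3114 TPM with DMSO. In the test described below, 5 of 10 fibroblast markers fell and 0 rose, where 8.21% of all genes tested fell and 11.6% rose. The sum over the 10 was 10119 and 9583 TPM with CX-5461 and 13369 and 10685 TPM with DMSO. Of 6 macrophage markers 5 were tested and 2 rose, Lyz2 and Adgre1 (40% of those tested, against 11.6% of all genes tested). The sum over the 6 was 852 and 950 TPM with CX-5461 against 591 and 584 TPM with DMSO, nearly all of it Lyz2. The defining leukocyte gene Ptprc, not tested because of its low level, lay between 0.656 and 1.27 TPM in all libraries. Of 5 endothelial markers only 2 were tested: Kdr rose and Tek fell (11.6% and 8.21% of all genes tested). Pecam1, Cdh5 and Emcn lay below 0.4 TPM. The sum over 6 keratinocyte markers was 17.9 and 28.7 TPM with CX-5461 against 30.7 and 32.4 TPM with DMSO, that over 5 skeletal muscle markers 22.8 and 16.1 against 50.7 and 57.3 TPM (Acta1 for nearly all, with Myod1 and Myog at 0), and that over 5 neural markers 249.6 and 269 against 281 and 275 TPM. The part of these other cell types, of the fall in proliferation and of the mitochondrial share in the differences below was not tested, and in bulk RNA a change in the number of cells of a type and a change in RNA per cell cannot be told apart.

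The comparison of CX-5461 with DMSO asks how the messages of the autophagy genes stood on day 2 after the brief treatment. Most were slightly higher with CX-5461, and none passed the test as lower. Of the 38 genes, 8 rose and 0 fell at an adjusted p under 0.05 (limma on log2(TPM + 1), Benjamini-Hochberg over 14621 genes tested), where 11.6% of all genes tested rose and 8.21% fell. The count of lower genes was also 0 at an unadjusted p under 0.05 (14.5% of all genes tested) and 0 with voom on recovered reads (15.1%). The 8 that rose were Ulk1, Atg13 and Rb1cc1 of the initiation complex, Pik3c3 and Atg14 of the PI3-kinase complex, Atg3 and Atg12 of the conjugation system, and the mitophagy receptor Bnip3l. Their rises ran from 1.26-fold to 1.75-fold. The difference was above 0 for 35 of the 38 genes (92.1%, against 57.5% of all genes tested), and both CX-5461 libraries lay above both DMSO libraries for 29 (76.3%, against 38.2% of all genes tested). For 2 genes, Atg9a and Uvrag, both CX-5461 libraries lay below both DMSO libraries (26.3% of all genes tested), and for 7 the groups overlapped. The median difference over the 38 genes was 0.26, and that over all genes tested 0.07. With the scale set by median-of-ratios, by quantile normalization or by leaving out mitochondrial and the highest genes, the medians of the autophagy genes were 0.19, 0.17 and 0.19 and those of all genes 0.01, 0.02 and 0.00. Under these scalings the difference was above 0 for 32, 31 and 32 of the 38 genes, and the share of all genes above 0 was not taken.

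These calls rest on few libraries, and on simulated data of this size the share of false calls was above the nominal threshold, so an adjusted p just under 0.05 is weak evidence. Leaving out CX-5461 replicate 2 or CX-5461 replicate 3 ended all 8, where 2.15% and 1.62% of all genes tested still rose. Without DMSO replicate 3 the calls of Rb1cc1, Atg3 and Bnip3l were left (6.48% of all genes). Without DMSO replicate 2 all 8 but Ulk1 were left and Atg101, Wipi2, Map1lc3b, Gabarapl2 and Sqstm1 were added, 12 in all (14% of all genes). Over these 4 omissions the median difference stayed between 0.22 and 0.30. An exact permutation test of a single gene with 2 libraries against 2 cannot give a two-sided p below 0.333, so none was used.

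**Figure D1:**
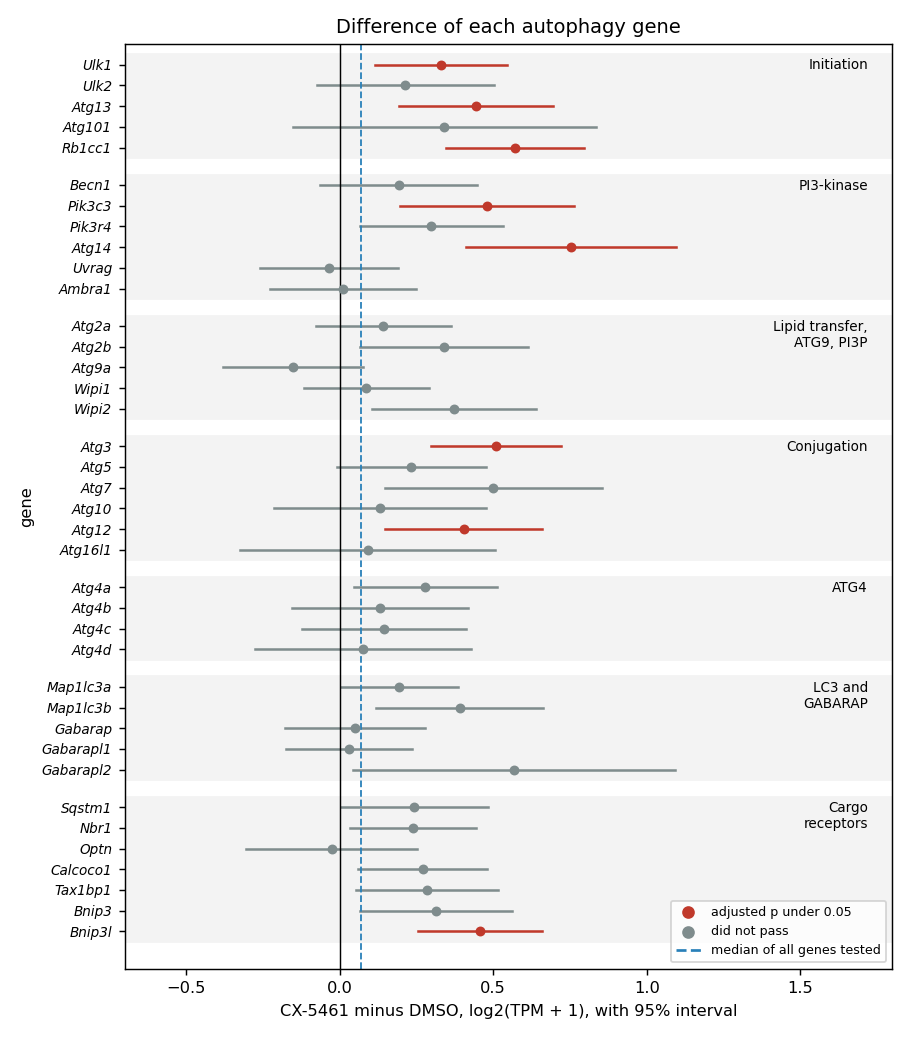
Difference of each of the 38 autophagy genes, on a log2(TPM + 1) axis with CX-5461 minus DMSO as its direction, with its 95% interval from limma, grouped by role. The 8 genes that passed are in red and the dashed line marks the median of all genes tested, 0.07; most points lie to its right, and the intervals of many genes in grey include 0.

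**Figure D2:**
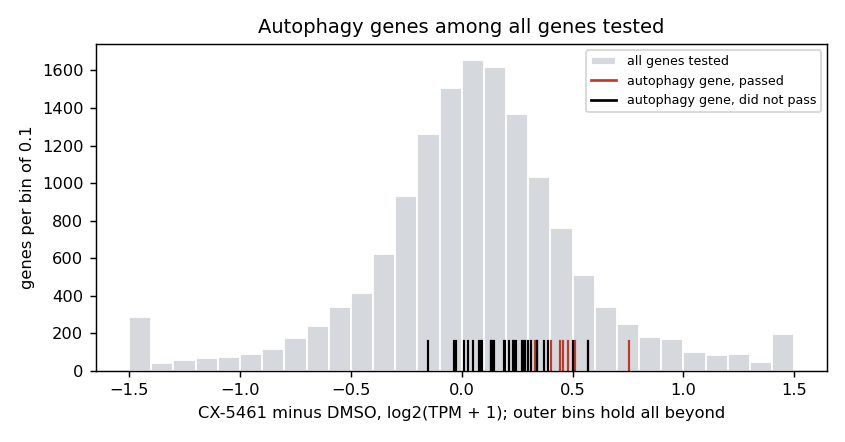
Histogram of the differences of all 14621 genes tested (grey, bins of 0.1 on the log2 scale, the outer bins holding all beyond), with a tick for each of the 38 autophagy genes, red where the gene passed (the tick of Rb1cc1 is hidden by that of Gabarapl2 at 0.57). The autophagy genes spread from -0.15 to 0.75, well inside the range of all genes.

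Promoter sequences are shown for the members that rose and have an entry in the RefSeq promoter table (build GRCm38.p6), to set side by side those with and without an E-box, the core bound by basic helix-loop-helix factors such as TFEB, a regulator of autophagy and lysosome genes. Each window runs 5′ to 3′ from 250 bases before the RefSeq start of the gene to 50 after it, and capitals mark CACGTG.
Atg3 (GRCm38.p6, chr16:45158579-45158878, plus strand): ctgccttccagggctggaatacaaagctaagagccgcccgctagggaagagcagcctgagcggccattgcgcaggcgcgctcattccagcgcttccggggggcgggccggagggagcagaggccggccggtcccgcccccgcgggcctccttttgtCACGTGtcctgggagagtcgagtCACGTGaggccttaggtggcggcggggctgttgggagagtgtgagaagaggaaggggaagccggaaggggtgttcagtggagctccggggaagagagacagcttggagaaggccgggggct
Atg14 (GRCm38.p6, chr14:47568385-47568684, minus strand): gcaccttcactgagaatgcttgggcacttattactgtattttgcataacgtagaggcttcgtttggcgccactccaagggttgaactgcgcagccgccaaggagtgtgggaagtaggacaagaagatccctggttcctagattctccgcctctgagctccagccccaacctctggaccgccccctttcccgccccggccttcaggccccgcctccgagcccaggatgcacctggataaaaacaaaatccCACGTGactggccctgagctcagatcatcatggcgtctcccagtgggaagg
Ulk1 (GRCm38.p6, chr5:110810032-110810331, minus strand): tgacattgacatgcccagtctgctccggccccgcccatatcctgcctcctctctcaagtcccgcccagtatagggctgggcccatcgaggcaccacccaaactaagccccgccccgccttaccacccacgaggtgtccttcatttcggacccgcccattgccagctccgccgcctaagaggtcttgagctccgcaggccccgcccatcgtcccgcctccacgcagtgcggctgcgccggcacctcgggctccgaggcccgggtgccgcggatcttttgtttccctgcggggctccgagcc
Atg13 (GRCm38.p6, chr2:91710543-91710842, minus strand): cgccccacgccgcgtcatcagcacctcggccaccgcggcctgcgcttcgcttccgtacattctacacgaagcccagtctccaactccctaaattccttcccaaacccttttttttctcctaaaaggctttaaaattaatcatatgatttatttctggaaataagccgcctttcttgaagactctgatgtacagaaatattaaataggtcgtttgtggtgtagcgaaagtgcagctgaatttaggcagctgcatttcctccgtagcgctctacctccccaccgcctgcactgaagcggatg
The Atg3 window held 2 E-boxes, whose first bases lay 94 and 71 bases before the start, and the Atg14 window held 1, which began 1 base before it. The Ulk1 and Atg13 windows held none. Windows were found for 31 of the 38 genes, 35 windows in all because a few genes have several starts. CACGTG, which reads the same on both strands, stood in 5 of the 35 (14.3%), those of Atg3, Atg14, Atg5, Atg7 and Bnip3, and in 7.15% of all 32851 windows. Of these genes Atg3 and Atg14 rose, while Atg5, Atg7 and Bnip3 did not pass. The Atg7 window, from 114670846 on chromosome 6, lies inside the gene, which GENCODE M21 begins at 114643097. The longer TCACGTGA, which contains CACGTG, stood in the window of Atg3 (2.86% of the members' windows and 0.974% of all). The longer CLEAR motif, which contains both, stood in 0 of the 35 (0.326% of all), and the forkhead motif TGTTTAC, searched on both strands, in 0 of the 35 (3.65% of all). Such a match is a description of letters and shows no binding.

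Of the 5 initiation complex genes 3 rose, where 11.6% of all genes tested did. In all 5 both CX-5461 libraries lay above both DMSO libraries, as for 38.2% of all genes tested, and the median difference was 0.34. The role groups hold 4 to 7 genes each, too few to rank by such shares. Ulk1, the kinase that starts autophagy (chromosome 5, 110784488 to 110810097, mm10), had 43.0 and 42.5 TPM with CX-5461 against 34.5 and 33.1 TPM with DMSO. Its means were 42.8 ± 0.357 and 33.8 ± 1.00 TPM (SD, n = 2 each), a log2 difference of 0.33 ± 0.0869 (SE, limma adjusted p = 0.0496). That p lies just under the threshold, and under the other scalings it was 0.0659 (median-of-ratios), 0.0741 (quantile) and 0.0755 (rescaling). Rb1cc1 (chromosome 1, 6206197 to 6276648), which encodes the large scaffold FIP200, had 34.1 and 35.5 TPM with CX-5461 against 22.9 and 23.3 TPM with DMSO, and the groups lay far apart relative to their spread. The difference was 0.57 ± 0.0909 (adjusted p = 0.0115). Atg13 (chromosome 2, 91674618 to 91710576), the regulatory subunit that mTORC1 phosphorylates, had 45.7 and 46.6 TPM against 36.0 and 31.5 TPM, a difference of 0.44 ± 0.101 (adjusted p = 0.0330). Without CX-5461 replicate 3 the adjusted p were 0.257 for Ulk1, 0.126 for Rb1cc1 and 0.215 for Atg13. Without CX-5461 replicate 2 they were 0.245, 0.0920 and 0.174. Atg101, which stabilises ATG13, had the highest mean of the group but did not pass: 54.4 and 51.5 TPM with CX-5461 against 50.9 and 34.0 TPM with DMSO, the DMSO libraries being farther apart than the groups (adjusted p = 0.272). Ulk2, the paralog of Ulk1, had 39.5 and 44.5 TPM against 33.4 and 38.8 TPM (0.21, adjusted p = 0.248, 95% interval -0.08 to 0.50). The ratio of Ulk1 to Ulk2 TPM was 1.09 and 0.956 with CX-5461 and 1.03 and 0.853 with DMSO, so both kinases stood at like levels in every library.

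**Figure D3:**
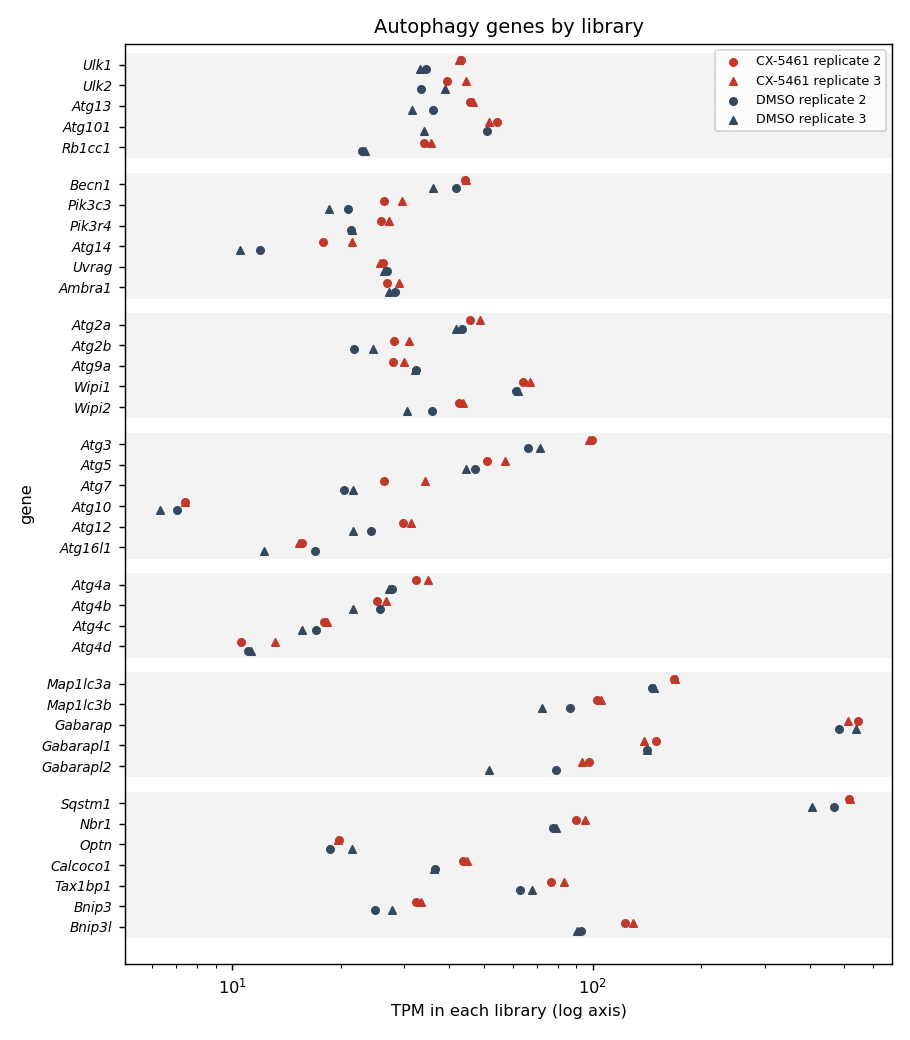
TPM of each autophagy gene in each of the 4 libraries (log axis), CX-5461 in red above DMSO in dark blue, circles for replicate 2 and triangles for replicate 3. Levels run from 6.29 TPM (Atg10) to 544 TPM (Gabarap), and DMSO replicate 3 lies far below DMSO replicate 2 for Atg101, Atg16l1 and Gabarapl2.

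In the PI3-kinase complex, the subunit genes Atg14 and Pik3c3 rose, 2 of the 6 genes of the group (33.3%, against 11.6% of all genes tested), and Uvrag and Ambra1 had differences close to 0. Atg14 (chromosome 14, 47540893 to 47570649), which directs the complex to sites of autophagosome formation, had the largest difference of the 38 genes. It had 17.9 and 21.5 TPM with CX-5461 against 12.0 and 10.5 TPM with DMSO (means 19.7 ± 2.53 and 11.2 ± 1.04 TPM, SD, n = 2 each), a difference of 0.75 ± 0.138 (adjusted p = 0.0179). Pik3c3 (chromosome 18, 30272747 to 30348126), the catalytic subunit VPS34, had 26.4 and 29.6 TPM against 21.02 and 18.6 TPM, a difference of 0.48 ± 0.115 (adjusted p = 0.0374). Neither gene's groups overlapped. Pik3r4, the regulatory subunit VPS15, had 25.9 and 27.2 TPM against 21.4 and 21.4 TPM, short of the threshold (0.30, adjusted p = 0.0791). Becn1, the scaffold Beclin 1 and the most abundant of the group, had 44.3 and 44.4 TPM against 41.7 and 36.0 TPM (0.19, adjusted p = 0.244). Uvrag, which replaces ATG14 in the endosomal form of the complex, had 26.2 and 25.7 TPM with CX-5461 against 26.8 and 26.3 TPM with DMSO (-0.03, 95% interval -0.26 to 0.19). Ambra1, a Beclin 1 activator, had 26.9 and 29.1 TPM against 28.4 and 27.2 TPM (0.01, 95% interval -0.23 to 0.25), with overlapping groups. The ratio of Atg14 to Uvrag TPM was 0.683 and 0.836 with CX-5461 and 0.446 and 0.399 with DMSO, so that the ratio was higher in each CX-5461 library than in each DMSO library; the ratio was not tested. Without CX-5461 replicate 3 the adjusted p were 0.143 for Atg14 and 0.246 for Pik3c3, and without DMSO replicate 3 they were 0.0765 and 0.115. Exons of 13 of the 38 genes overlap exons of a gene on the opposite strand. The overlap is 239 bases for Atg14 (Gm49004) and 558 for Rb1cc1 (4732440D04Rik). It is longer for Becn1 (3104 bases, Cntd1), Uvrag (1589, Gm45187) and Atg4d (1405, Kri1). The strand setting of the counting is not given in the sources used here, so these levels, and the ratio of Atg14 to Uvrag, may include reads of the other gene.

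Genes of lipid supply and of PI3P reading did not pass, and the group held the lowest difference of the 38. Of these 5 genes, 0 rose and 0 fell (0 by voom for falls, and 2 rises by voom, those of Atg2b and Wipi2, of which Wipi2 also passed without DMSO replicate 2). Wipi2, the PI3P reader that recruits ATG16L1, had the largest difference of the group: 42.5 and 43.6 TPM with CX-5461 against 35.8 and 30.5 TPM with DMSO (0.37, adjusted p = 0.0645). Its paralog Wipi1, the most abundant, had 64.2 and 66.8 TPM against 61.3 and 62.0 TPM (0.09, adjusted p = 0.498, and below 0 after quantile normalization). Of the lipid transfer paralogs, Atg2b had 28.2 and 31.0 TPM against 21.8 and 24.6 TPM (0.34, adjusted p = 0.0843) and Atg2a 45.6 and 48.6 TPM against 43.4 and 41.8 TPM (0.14, adjusted p = 0.306). Atg9a, the lipid scramblase of ATG9 vesicles, ran the other way in value, with 27.9 and 29.9 TPM with CX-5461 against 32.3 and 32.2 TPM with DMSO (-0.15, 95% interval -0.38 to 0.08, adjusted p = 0.292). Exons of Atg9a overlap those of Gm29253 on the same strand over 1832 bases, so its reads may be shared.

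Of the 6 conjugation genes, 2 rose (33.3%, against 11.6% of all genes tested). Atg3 (chromosome 16, 45158785 to 45188538), the E2-like enzyme that passes LC3 to phosphatidylethanolamine, was the most abundant of them and had the largest difference. It had 99.4 and 97.5 TPM with CX-5461 against 66.3 and 71.5 TPM with DMSO (means 98.4 ± 1.31 and 68.9 ± 3.72 TPM, SD, n = 2 each), a difference of 0.51 ± 0.0855 (adjusted p = 0.0135). Atg12 (chromosome 18, 46730144 to 46741580), the ubiquitin-like protein joined to ATG5, had 29.8 and 31.4 TPM against 24.2 and 21.6 TPM, a difference of 0.40 ± 0.103 (adjusted p = 0.0459). The groups did not overlap for either gene. Atg7, the E1-like enzyme that activates both ATG12 and LC3, had 26.4 and 34.3 TPM against 20.4 and 21.6 TPM, with the CX-5461 libraries well apart from each other (0.50, adjusted p = 0.0613). It passed with a replicate block, with a filter of 5 TPM and with voom. Atg5 had 51.0 and 57.3 TPM against 47.2 and 44.5 TPM (0.23, adjusted p = 0.153). Atg10, the E2-like enzyme for ATG12, was the lowest of the 38 genes, at 7.37 and 7.39 TPM against 7.02 and 6.29 TPM (0.13, adjusted p = 0.542). Atg16l1, which carries the ATG12 and ATG5 conjugate to the membrane, had 15.6 and 15.3 TPM against 17.0 and 12.2 TPM, overlapping groups (0.09, adjusted p = 0.728). Without CX-5461 replicate 3 the adjusted p were 0.135 for Atg3 and 0.266 for Atg12, and without DMSO replicate 3 Atg12 had 0.115.

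The 4 ATG4 proteases, which trim LC3 and GABARAP before conjugation and later release them, did not pass in either direction (0 by voom too). Atg4a, the most abundant and the one with the largest difference, had 32.3 and 34.9 TPM with CX-5461 against 27.7 and 27.2 TPM with DMSO (0.28, adjusted p = 0.0920). Atg4a-ps on chromosome 3, named as a pseudogene of Atg4a but annotated as protein coding, may share reads with it. Atg4b had 25.2 and 26.7 TPM against 25.6 and 21.7 TPM (0.13, adjusted p = 0.465), Atg4c 18.0 and 18.4 TPM against 17.1 and 15.6 TPM (0.14, adjusted p = 0.387), and Atg4d 10.6 and 13.2 TPM against 11.1 and 11.2 TPM (0.08, adjusted p = 0.731). Atg4a made up 37.5% and 37.5% of the summed TPM of the 4 genes with CX-5461 and 34.0% and 35.9% with DMSO, and Atg4d 12.3% and 14.2% against 13.6% and 14.8%, so the order of the 4 paralogs was alike in the means of both groups.

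The LC3 and GABARAP genes include Gabarap, which with Sqstm1 was the most abundant of the 38 genes, and 0 of these 5 rose or fell. Under other settings Map1lc3b passed as higher with median-of-ratios scaling (adjusted p = 0.0438), rescaling (0.0457), a filter of 5 TPM (0.0464), voom (0.00571) and without DMSO replicate 2 (0.0212). Gabarapl2 passed as higher with a replicate block (adjusted p = 0.0492), voom (0.0103) and without DMSO replicate 2. Gabarap had 544 and 512 TPM with CX-5461 against 482 and 538 TPM with DMSO, overlapping groups (0.05, 95% interval -0.18 to 0.28). Gabarapl1 had 150.4 and 139 TPM against 142 and 142 TPM (0.03, 95% interval -0.18 to 0.24). Both were below 0 in difference under the other scalings and with voom. The LC3 genes and Gabarapl2 lay higher in both CX-5461 libraries than in both DMSO libraries. Map1lc3b, the LC3B gene whose product is the usual marker of autophagosomes, had 103 and 106 TPM against 86.8 and 72.4 TPM (0.39, adjusted p = 0.0592). Map1lc3a, the LC3A gene, had 168 and 169 TPM against 146 and 148 TPM, with replicates close together (0.19, adjusted p = 0.132). Gabarapl2, the GATE-16 gene, had 97.5 and 93.5 TPM against 79.3 and 51.7 TPM (0.57, adjusted p = 0.117). The ratio of its DMSO libraries lay farther from 1 than that of any other of the 38 genes, and without DMSO replicate 3 its difference was 0.26, against 0.87 without DMSO replicate 2 (adjusted p = 0.0125).

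Of the 7 cargo receptor genes, 1 rose (14.3%, near the 11.6% of all genes tested). Bnip3l (chromosome 14, 66985239 to 67008877), which encodes NIX, an outer membrane receptor for the removal of mitochondria, had 123 and 129 TPM with CX-5461 against 93.1 and 90.3 TPM with DMSO (means 126 ± 4.23 and 91.7 ± 2.03 TPM, SD, n = 2 each). The difference was 0.46 ± 0.0814 (adjusted p = 0.0162), the groups lay well apart, and the adjusted p was 0.180 without CX-5461 replicate 3 and 0.123 without CX-5461 replicate 2. A processed pseudogene, Bnip3l-ps, lies on chromosome 12 and may share reads with it. Bnip3, the paralog of the same role, had 32.4 and 33.5 TPM against 24.9 and 27.8 TPM (0.31, adjusted p = 0.0809), and the ratio of Bnip3l to Bnip3 TPM was 3.81 and 3.86 with CX-5461 and 3.74 and 3.25 with DMSO. Sqstm1, the ubiquitin-binding receptor p62, which is itself degraded by autophagy, had 515 and 519 TPM against 469 and 406 TPM (0.24, adjusted p = 0.135). Without DMSO replicate 2 it passed. Nbr1 had 90.1 and 95.6 TPM against 77.8 and 79.3 TPM (0.24, adjusted p = 0.0995), Tax1bp1 76.5 and 83.5 TPM against 63.1 and 68.0 TPM (0.28, adjusted p = 0.0867), and Calcoco1 43.6 and 44.7 TPM against 36.6 and 36.3 TPM (0.27, adjusted p = 0.0788). For these 3 receptors, which bind ubiquitinated or other cargo, both CX-5461 libraries lay above both DMSO libraries without passing. Optn, optineurin, had 19.7 and 19.6 TPM against 18.7 and 21.5 TPM (-0.03, 95% interval -0.30 to 0.25).

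The DMSO libraries differed most for a few genes. The ratio of DMSO replicate 3 to DMSO replicate 2 was lowest for Gabarapl2 (0.651), Atg101 (0.667) and Atg16l1 (0.720), singled out after their values were seen, and its median over the 38 genes was 0.975, against 0.935 over all genes tested. The ratio of CX-5461 replicate 3 to CX-5461 replicate 2 had a median of 1.04 over the 38 genes and 1.02 over all genes tested. CX-5461 replicate 3 was above CX-5461 replicate 2 by the most for Atg7 (ratio 1.30).

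The other genes of the pathway, from 7 lists outside the 38, held 132 genes that were tested. Of these, 25 rose (18.9%, against 11.6% of all genes tested) and 1 fell (8.21% of all genes tested), with a median difference of 0.20, against 0.07 over all genes tested. Of 19 further genes of autophagosome formation, 2 rose (10.5%, near the share of all genes): Ei24, an endoplasmic reticulum protein and p53-induced gene, with 191 and 190.1 TPM with CX-5461 against 113 and 85.9 TPM with DMSO (0.94, adjusted p = 0.00915), and Zfyve1 (0.44, adjusted p = 0.0412), which encodes the PI3P-binding DFCP1. Of 21 tested genes of fusion with lysosomes, 4 rose (19.0%). Vps11, Vps41 and Vps33a, subunits of the HOPS tether, had differences of 0.75, 0.66 and 0.56 (adjusted p = 0.00427, 0.00559 and 0.0355), and the lysosome positioning gene Bloc1s1 0.62 (adjusted p = 0.0142). Vps41 had 128 and 138 TPM against 83.9 and 83.2 TPM. Of 21 tested further receptors and related genes of selective autophagy, 5 rose (23.8%) and 1 fell. Rtn3, a receptor for the tubular endoplasmic reticulum, fell, with 118 and 122 TPM with CX-5461 against 156 and 170.2 TPM with DMSO (-0.44, adjusted p = 0.0219), while Yipf3, Retreg2 and Ccpg1 rose (0.47, 0.53 and 0.53, adjusted p = 0.0130, 0.0137 and 0.0231). The remaining rises, named because they were few, were those of Pink1 and Retreg3 (0.69 and 0.35). Pink1 encodes a kinase of mitophagy and no receptor.

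Upstream of the machinery, 4 of 33 genes of mTORC1 and its inputs rose (12.1%), a share near the 11.6% of all genes tested. Castor1, an arginine sensor that holds mTORC1 back, had 73.3 and 74.7 TPM with CX-5461 against 35.4 and 28.8 TPM with DMSO (1.19, adjusted p = 0.00286), and Flcn, Rraga and Akt1s1 rose by 0.53, 0.41 and 0.31 (adjusted p = 0.0159, 0.0196 and 0.0408). For Mtor itself, the kinase gene, the values were 37.6 and 40.9 TPM with CX-5461 against 35.5 and 33.6 TPM with DMSO (adjusted p = 0.235). Of 10 tested AMPK genes 2 rose (20%): the catalytic subunit gene Prkaa2, with 13.2 and 15.8 TPM against 4.61 and 4.63 TPM (1.46, adjusted p = 0.00279), and Stk11, the upstream kinase LKB1 (0.49, adjusted p = 0.0207). The more abundant catalytic subunit gene Prkaa1 had 64.9 and 67.5 TPM against 64.1 and 65.2 TPM (0.03). Of 16 tested transcription factor genes 4 rose (25.0%): Foxo3 (0.64, adjusted p = 0.00841), Ddit3 (0.43, adjusted p = 0.0179), Hif1a (0.47, adjusted p = 0.0186) and Cebpb (0.46, adjusted p = 0.0210). Tfeb had 5.79 and 6.07 TPM against 6.52 and 4.71 TPM and Tfe3 28.6 and 29.1 TPM against 27.8 and 29.3 TPM, with overlapping groups. Of 14 p53 targets that act on autophagy or mTORC1, 4 rose (28.6%). Trp53inp1, which binds LC3, had 203 and 237 TPM with CX-5461 against 84.7 and 74.8 TPM with DMSO (1.45, adjusted p = 0.00146), Dapk1 61.4 and 60.3 TPM against 33.7 and 33.1 TPM (0.85, adjusted p = 0.00279), the mTORC1 inhibitor Sesn2 173 and 176 TPM against 108 and 99.3 TPM (0.75, adjusted p = 0.00413) and Aen 134 and 142 TPM against 98.2 and 95.8 TPM (0.50, adjusted p = 0.0123). Without either of the CX-5461 libraries, the calls left among the 26 in these lists were those of Castor1, Prkaa2, Trp53inp1 and Dapk1 in each case.

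The number of autophagy genes that rose moved with the settings, and so did that of all genes. With pseudocounts of 0.1 and 5 it was 8 and 8, where 11.5% and 11.8% of all genes tested rose. With no filter on low values it was 4, where 4.93% rose, and with a filter of 5 TPM it was 10, where 15.2% rose. With median-of-ratios, quantile and rescaled values it was 8, 7 and 8, where 11.3%, 11.2% and 10.9% rose. Without limma's trend and robust options it was 3 (Rb1cc1, Atg14 and Atg3), where 7.71% rose, with a replicate block it was 7, where 10.9% rose, and with voom it was 13, where 15.7% rose. At adjusted p thresholds of 0.1 and 0.01 it was 18 and 0, where 17.9% and 3.75% of all genes rose.

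**Figure D4:**
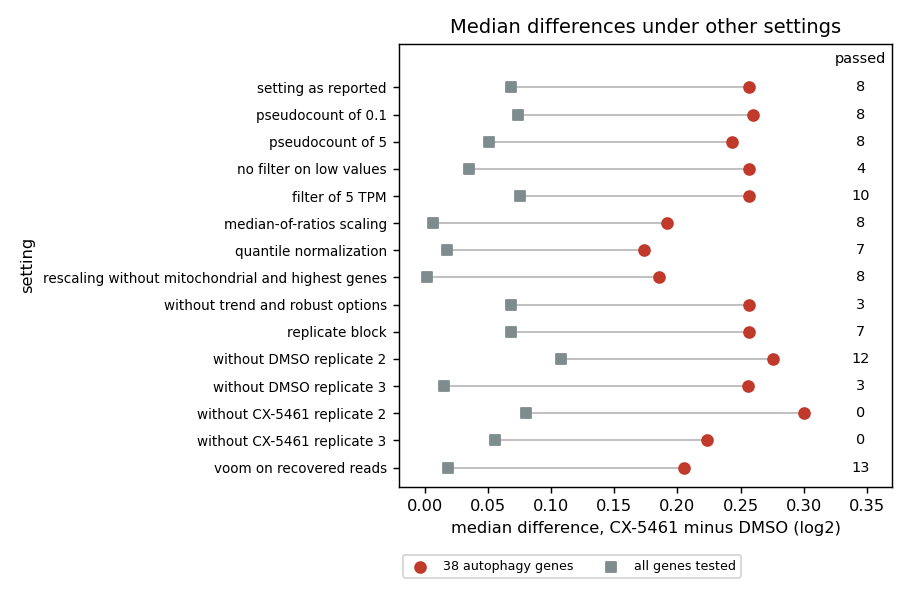
Median difference of the 38 autophagy genes (red) and of all genes tested (grey squares), as log2 differences of CX-5461 minus DMSO, under the reported setting and 14 others, with the number of autophagy genes that rose at the right. The autophagy median lies above that of all genes in each setting shown, while the number that rose runs from 0 to 13.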

How the data were processed

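Messenger RNA captured on poly(T) beads from 4 libraries was sequenced in pairs of 150 bases, per the labels. The authors deposited TPM values, reads per gene divided by gene length and scaled to a fixed sum per library, so each value is relative to all others. The submitters' processing notes name build mm10. The sources used here do not give the aligner, the counter or the annotation. Columns were matched to samples by title, and 0 were left unused.

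Genes averaging at least 1 TPM were tested on log2(TPM + 1), which understates changes of low genes, by limma (version 3.58.1, R 4.3.3) with trend and robust moderation, no covariate, 2 residual and 3.75 prior degrees of freedom, Benjamini-Hochberg adjustment over all genes and a threshold of 0.05. On simulated data it recovered most genes changed by the largest simulated fold, with a false share above the threshold. The simulated folds were mostly larger than the rises of the autophagy genes, and the smallest simulated fold lay within the range of those rises. Recovery of changes below that smallest fold was not tested. Multiplying TPM by the GENCODE M21 exon length and a library constant gave read numbers: of 70108 values above 0, 69.7% came within 0.01 of whole reads (chance would give 2%), and 16 of the 38 genes had whole reads throughout. Replicates differed beyond counting noise (chi-square per degree of freedom 8.45 for CX-5461, 14.6 for DMSO). Both mates of a pair were taken as separate reads, which by itself raises these values.

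The members and lists were chosen with earlier results of these data known. Members that passed, and the most abundant and most different member of each role, are given in full, and of each other list up to 4 genes with the smallest adjusted p that passed. Mtor, Prkaa1, Tfeb, Tfe3, Pink1 and Retreg3 were added after their values were seen.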

Additional observations from a re-analysis of the deposited data

How the results depend on the processing

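Other settings, listed in advance, were pseudocounts of 0.1 and 5, no filter, a filter of 5 TPM, 3 other scalings, limma with neither trend nor robust moderation, a replicate block, thresholds of 0.1 and 0.01 and each library left out, where a lone library is assumed to vary like the other group; voom on recovered reads was chosen after seeing the data. No difference of a gene that passed changed sign. The 8 autophagy genes that rose became 4 with no filter, 3 without trend and robust options, 13 with voom, 18 and 0 at the thresholds of 0.1 and 0.01, and 0 to 12 with a library left out. Their median moved to 0.19 (median-of-ratios), 0.17 (quantile), 0.19 (rescaling) and 0.21 (voom). With a replicate block 7 rose, 5 of them among the 8. Deviations of same-numbered libraries correlated at 0.03 over all genes tested. A single value over all genes can miss a shared source, so whether the numbers mark pairs was not settled. Ambra1, Gabarap and Gabarapl1 changed sign, without passing, under the 3 scalings and voom.

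For the other pathway genes, the 25 rises became 15 without trend and robust options, 9 at a threshold of 0.01 and 4 to 34 with a library left out. The 1 fall became 5 (median-of-ratios), 4 (quantile), 5 (rescaling), 9 (voom), 0 without trend and robust options, 4 and 0 at thresholds of 0.1 and 0.01, and 0 to 2 with a library left out. For all genes, the 1694 rises became 1051 with no filter, 1128 without trend and robust options, 2623 and 548 at the thresholds of 0.1 and 0.01, and 237 to 2047 with a library left out. The 1201 falls became 2141 with voom, 518 at 0.01, and 364 to 891 with a library left out. The cause of these shifts was not tested, other than the thresholds. Libraries of a group differed by more than counting noise.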
